A study of Homo sapiens with 12 samples.

Results

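The G2/M and mitotic spindle genes are 56 listed genes that carry a cell from G2 through division: cyclins and CDK1, mitotic kinases, the spindle checkpoint, kinesin motors, kinetochore proteins, spindle and cytokinesis proteins, and condensins with topoisomerase II alpha. They were found by gene symbol, and each was read from its brightest probe set that names 1 gene. Of the 56, 55 had such a probe set and 49 were tested, out of 10346 genes measured and 7760 tested in the series. SGO1 had no such probe set. PLK1, INCENP, SGO2, KIF15, KIF18A and KIF20B lay under the filter on low levels, a mean of 7.54 on the log2 scale.

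RNA of U251 cells, an established human glioblastoma line, was hybridized to 12 Affymetrix arrays in 4 groups of 3. The cells were transiently transfected with a control siRNA that matches no known human transcript, with a pool of siRNAs against ETV6, with a pool against NFKB1, or with both pools, each siRNA at 50 nM. ETV6 encodes an ETS-family repressor of transcription, and NFKB1 gives rise to p105 and its product p50, an NF-kB subunit. The labels do not tell whether replicate arrays stem from separate cultures, and the p-values then measure only the spread between these samples, which may be technical.

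In G2 the cyclin B and CDK1 kinase is held inactive until CDC25 phosphatases switch it on and the cell enters mitosis. Kinesins and microtubule-binding proteins then build the spindle, the checkpoint proteins hold the anaphase-promoting complex (APC/C) back until every kinetochore is attached, and CDC20 and UBE2C let the complex destroy cyclin B and securin. Many of these genes are transcribed together late in the cell cycle by MuvB complexes with MYBL2 and FOXM1, which act at a promoter element called the cell cycle genes homology region (CHR), and by NF-Y, which binds CCAAT boxes. In bulk samples such as these, fewer cells in G2 or mitosis and less RNA per cell cannot be told apart.

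The promoters show what the members share beyond their role. RefSeq windows of 300 bases (250 before and 50 after an annotated start, GRCh38.p14) were matched for 50 of the 56 members, as 64 windows. AURKA, TPX2, BIRC5, TTK, UBE2C and RACGAP1 were not matched. The 120 bases before the start are printed for 4 members, CCNB1 and CDC20 because they rose with NFKB1 siRNA, and KIF11 and CENPE because they fell with it. Capitals mark the CHR letters, which are TTTGAA on either strand or its palindromic variant TTTAAA, and the letters of a CCAAT box on either strand.
CCNB1, chr5:69167030-69167149, plus strand: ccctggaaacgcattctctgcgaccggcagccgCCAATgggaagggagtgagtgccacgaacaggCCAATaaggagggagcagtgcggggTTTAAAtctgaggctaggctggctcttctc
CDC20, chr1:43358861-43358980, plus strand: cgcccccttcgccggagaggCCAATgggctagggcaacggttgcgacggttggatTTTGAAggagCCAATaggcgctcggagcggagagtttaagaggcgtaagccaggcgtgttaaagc
KIF11, chr10:92593010-92593129, plus strand: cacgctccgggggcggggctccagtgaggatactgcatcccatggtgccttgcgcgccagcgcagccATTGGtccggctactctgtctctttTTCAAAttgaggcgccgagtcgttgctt
CENPE, chr4:103198344-103198463, minus strand: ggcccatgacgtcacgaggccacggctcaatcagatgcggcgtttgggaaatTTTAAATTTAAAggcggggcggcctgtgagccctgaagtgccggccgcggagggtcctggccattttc

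In these 120 bases CCNB1 and CDC20 each held 1 CHR match and 2 CCAAT matches, KIF11 held 1 of each, and CENPE held 2 CHR matches side by side and 0 CCAAT matches. Over the full windows of the members, CHR letters on either strand occurred in 51 of 64 (79.7%), against 24.0% of 35116 windows of all genes. TTTGAA alone occurred in 64.1% of the members' windows and in 15.2% of all windows. CCAAT occurred in 73.4% of the members' windows against 34.6% of all, and both kinds of letters in 60.9% against 9.27%. The ETS core CCGGAA occurred in 26.6% against 17.2%, and the kB consensus in 9.38% against 11.3%. A match is a description of letters in a window and not of binding. Windows of 1 gene can overlap, so windows are not independent.

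The targeted genes were lower where their siRNA was used. Mean ETV6 was 8.87 ± 0.26 with control siRNA, 6.73 ± 0.11 with ETV6 siRNA, 8.70 ± 0.05 with NFKB1 siRNA and 7.36 ± 0.07 with both (log2 level, SD, n = 3). NFKB1 was 7.32 ± 0.15, 7.81 ± 0.06, 6.59 ± 0.47 and 6.55 ± 0.05 in the same order. The astroglial and glioma markers GFAP, VIM and SOX2 had means of 13.28, 14.50 and 12.70 over the 12 arrays. They are part of a list of 8 such markers, all of which passed the filter. Changes of the 8 against control ran from -0.30 to 0.68 with ETV6 siRNA, from -0.47 to 0.49 with NFKB1 siRNA and from -1.16 to 0.38 with both. The arrays with both siRNAs stood apart: their poly-A spike-in probe sets averaged 7.97 to 8.05 against 8.37 to 9.35 on the other arrays, the ACTB signal at the 3' end exceeded that at the 5' end by 2.05 to 2.16 against 1.52 to 1.91, and array medians were 8.34 to 8.38 against 8.08 to 8.27. The same difference for GAPDH was 0.46 to 0.51, within the 0.37 to 0.54 of the other arrays. Hybridization spike-in probe sets averaged 10.66 to 10.92 against 10.83 to 11.35, which overlap. The 5th percentile of levels was 6.15 to 6.16 with both siRNAs against 5.46 to 6.04 on the other arrays. Control replicate 3 had the ACTB value of 1.91 and the 5th percentile of 6.04. It also had the lowest poly-A mean of the controls (8.53) and the highest array median outside the arrays with both siRNAs (8.27). Control replicate 3 differed from the other control arrays in the members, as described below. The part of these differences in the results was not tested.

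With ETV6 siRNA alone the mitotic genes fell and none rose. Of the 49 tested, 27 (55.1%) were called lower and 0 higher, where 6.28% of all tested genes were called lower and 4.38% higher; called means an adjusted p under 0.05 in limma with Benjamini-Hochberg adjustment over all genes tested. At an unadjusted p under 0.05, limma had 41 members lower and 0 higher. The share of all tested genes at this unadjusted threshold was not counted, so the 6.28% and 4.38% are no background for it. The median change of the members was -0.28 on the log2 scale against 0.00 over all tested genes. Every tested member had a negative change, from -1.33 to -0.02. The count of 27 rests in part on ETV6 replicates 1 and 3, since 14 members were called without either of them, and 6 when only the control and ETV6 arrays entered the fit. It was 29 without control replicate 3. Shares of all tested genes called in these alternative fits were not counted, so a general loss of calls cannot be told from a loss among the members.

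CENPE, the kinetochore motor that moves chromosomes to the spindle equator, had the largest change of the tested members with ETV6 siRNA. Its log2 levels were 8.35, 8.12 and 8.64 in the control arrays, 7.21, 7.28 and 6.65 with ETV6 siRNA, 6.98, 7.01 and 6.74 with NFKB1 siRNA, and 8.26, 8.42 and 8.17 with both. The arrays of each single knock-down lay wholly below the controls, and the arrays with both siRNAs overlapped the controls. The fall was -1.33 ± 0.17 (SE, n = 3 and 3), or 2.51-fold, with ETV6 siRNA (limma adjusted p = 0.000834) and -1.46 ± 0.17, or 2.75-fold, with NFKB1 siRNA (limma adjusted p = 6.21e-05). With both siRNAs the difference was -0.09 ± 0.17 (limma adjusted p = 0.627).

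Among the other kinetochore genes, CENPF, a large kinetochore protein that accumulates in G2, fell by 0.74 on the log2 scale with ETV6 siRNA (limma adjusted p = 0.00599). NDC80, which ties the kinetochore to microtubules, fell by 0.52 and its partner SPC25 by 0.40. CENPA, the histone variant of centromeres, fell by 0.22, and NUF2 had -0.53 with a limma adjusted p of 0.0538. In all, 5 of the 6 members of this class were called lower.

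Of the 6 tested kinesins 5 were called lower with ETV6 siRNA. KIF11, the plus-end motor that pushes spindle poles apart, read 9.66, 9.66 and 9.91 in the controls, 8.97, 9.31 and 8.93 with ETV6 siRNA, 8.69, 8.61 and 8.61 with NFKB1 siRNA, and 10.11, 10.18 and 10.22 with both. No 2 of the 4 groups overlapped, and the order was NFKB1, ETV6, control, both. The changes against control were -0.67 ± 0.10, -1.10 ± 0.10 and 0.43 ± 0.10 (SE), with limma adjusted p-values of 0.00168, 1.15e-05 and 0.00142. KIF14, a midbody motor, had -0.86 with ETV6 siRNA (limma adjusted p = 0.0163), a call lost without ETV6 replicate 1 (-0.86, adjusted p = 0.0574) or 3 (-0.71, adjusted p = 0.0715). KIF20A, KIF2C and KIF4A fell by 0.26, 0.22 and 0.33.

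Of the spindle and cytokinesis proteins 5 of 8 were called lower with ETV6 siRNA, led by ASPM, a spindle pole protein, at -1.05 ± 0.17 (limma adjusted p = 0.00307) and ANLN, the anillin of the contractile ring, at -0.75 ± 0.10 (limma adjusted p = 0.00102). NUSAP1, PRC1 and RACGAP1, which bundle spindle and midzone microtubules or signal from them, fell by 0.35, 0.24 and 0.18. Of the chromosome structure genes 4 of 6 were called: NCAPG, SMC2 and SMC4 of condensin, and TOP2A, the topoisomerase that untangles sister chromatids. These calls were close to the threshold. TOP2A had -0.57 ± 0.15 (limma adjusted p = 0.0337) and -0.48 without ETV6 replicate 3 (adjusted p = 0.133) or -0.53 without replicate 1 (adjusted p = 0.116). SMC4 had -0.64 (adjusted p = 0.0435), which became -0.54 and -0.61 without the same arrays (adjusted p = 0.161 and 0.133), and NCAPG -0.60 (adjusted p = 0.0123), which became -0.54 and -0.55 (adjusted p = 0.0544 and 0.0563), all by limma. The TOP2A and SMC4 calls were also lost, with the same estimates, without any 1 array of both siRNAs or without NFKB1 replicate 1 or 2 (adjusted p up to 0.0669).

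Of the 8 cyclins, CDK1 and its activators 4 were called lower with ETV6 siRNA, with a class median of -0.19. CCNB1, cyclin B1, read 11.55, 11.50 and 11.52 in the controls, 11.37, 11.37 and 11.39 with ETV6 siRNA, 11.71, 11.78 and 11.75 with NFKB1 siRNA, and 11.63, 11.64 and 11.67 with both. No groups overlapped although the changes were small, at -0.15, 0.23 and 0.12 on the log2 scale (SE 0.04 each; limma adjusted p = 0.0394, 0.00129 and 0.0145). The ETV6 call is fragile: it was lost in 15 of 22 alternatives, among them leaving out any ETV6 array (-0.16 to -0.13 over all left-out arrays). The second CCNB1 probe set had -0.04 with NFKB1 siRNA, and the rise with both siRNAs became 0.02 (adjusted p = 0.813) with array medians made equal and 0.11 (adjusted p = 0.0544) without replicate 3 of both siRNAs.

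CDK1, the kinase that cyclin B activates, read 11.20, 10.93 and 11.46 in the controls and 10.41, 11.09 and 10.82 with ETV6 siRNA, which overlap. It read 10.88, 10.84 and 10.84 with NFKB1 siRNA, wholly below the controls, and 11.77, 11.53 and 11.68 with both, wholly above them. The changes were -0.42, -0.34 and 0.46 ± 0.16 (SE), of which only the last passed the threshold (limma adjusted p = 0.124, 0.102 and 0.0166), and that call was lost without control replicate 2 (0.33, adjusted p = 0.0784) or replicate 1 of both siRNAs (0.41, adjusted p = 0.0589). Leaving out ETV6 replicate 2 brought the ETV6 change to -0.58 (adjusted p = 0.0383), and leaving out control replicate 2 or ETV6 replicate 1 brought the NFKB1 change to -0.48 or -0.34 (adjusted p = 0.0377 or 0.0468). CCNA2 (cyclin A2) and CCNB2 (cyclin B2) fell by 0.32 and 0.22 with ETV6 siRNA, and CDC25C, a phosphatase that activates CDK1, had -0.28 (adjusted p = 0.0256), a call lost without control replicate 1, ETV6 replicate 2 or ETV6 replicate 3 (-0.26, -0.26 and -0.24).

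AURKA, the centrosomal Aurora kinase, read 11.14, 11.15 and 11.25 in the controls, 10.89, 10.86 and 10.83 with ETV6 siRNA, 11.07, 11.12 and 11.18 with NFKB1 siRNA, and 11.32, 11.42 and 11.38 with both. The ETV6 arrays lay below and the arrays with both siRNAs above the controls, and the NFKB1 arrays overlapped them. AURKA fell by 0.32 ± 0.05 with ETV6 siRNA (limma adjusted p = 0.00296), as did its activator TPX2, also by 0.32. With both siRNAs it had 0.19 ± 0.05 (adjusted p = 0.0044), which became 0.08 (adjusted p = 0.234) with array medians made equal.

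MAD2L1, the checkpoint protein that holds CDC20 inactive, read 10.76, 10.41 and 10.92 in the controls, 9.78, 10.28 and 9.97 with ETV6 siRNA, 11.25, 11.11 and 10.86 with NFKB1 siRNA, and 11.00, 11.09 and 11.05 with both. The ETV6 arrays lay below the controls, the arrays with both siRNAs above them, and the NFKB1 arrays overlapped them. Its ETV6 change was -0.69 ± 0.15 (limma adjusted p = 0.012; -0.57 and 0.0561 without ETV6 replicate 1), and ETV6 siRNA lay 1.06 below NFKB1 siRNA (adjusted p = 0.000302). The NFKB1 change of 0.38 missed the threshold (adjusted p = 0.0584) and passed it in 8 of 22 alternatives, among them leaving out control replicate 3 (0.49, adjusted p = 0.0223), NFKB1 replicate 3 (0.48, adjusted p = 0.0336) or ETV6 replicate 1 or 2. The change of 0.35 with both siRNAs (adjusted p = 0.0416) lost its call in 9 alternatives. These include leaving out control replicate 2 (0.21, adjusted p = 0.189), control replicate 1, ETV6 replicate 3, NFKB1 replicate 2 or any 1 array of both siRNAs (adjusted p up to 0.0967). Its second probe set, with a mean level of 5.88 against 10.71, had -0.45 with NFKB1 siRNA and 1.09 with both. The probe sets of this gene thus disagree in direction for NFKB1 siRNA, the second at a level under the filter.

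NFKB1 siRNA alone moved the members both ways. Of 49, 24 (49.0%) were called lower and 12 (24.5%) higher by limma, where 25.1% of all tested genes were called lower and 15.5% higher. The median change was -0.23 against 0.01 over all tested genes. The counts were 21 lower and 10 higher without control replicate 3.

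By class the calls fell out as follows. All 4 called members among the cyclins, CDK1 and its activators were higher, and among the mitotic kinases and cofactors 4 were higher and 1 lower. In the spindle and cytokinesis class 7 of 8 were lower and 0 higher, in the chromosome structure class 5 of 6 lower and 0 higher, and among kinesins and among kinetochore genes 4 of 6 lower and 1 higher. The checkpoint and ubiquitin ligase genes divided, with 3 lower and 2 higher of 8. Whether the classes differ was not tested.

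**Figure D1:**
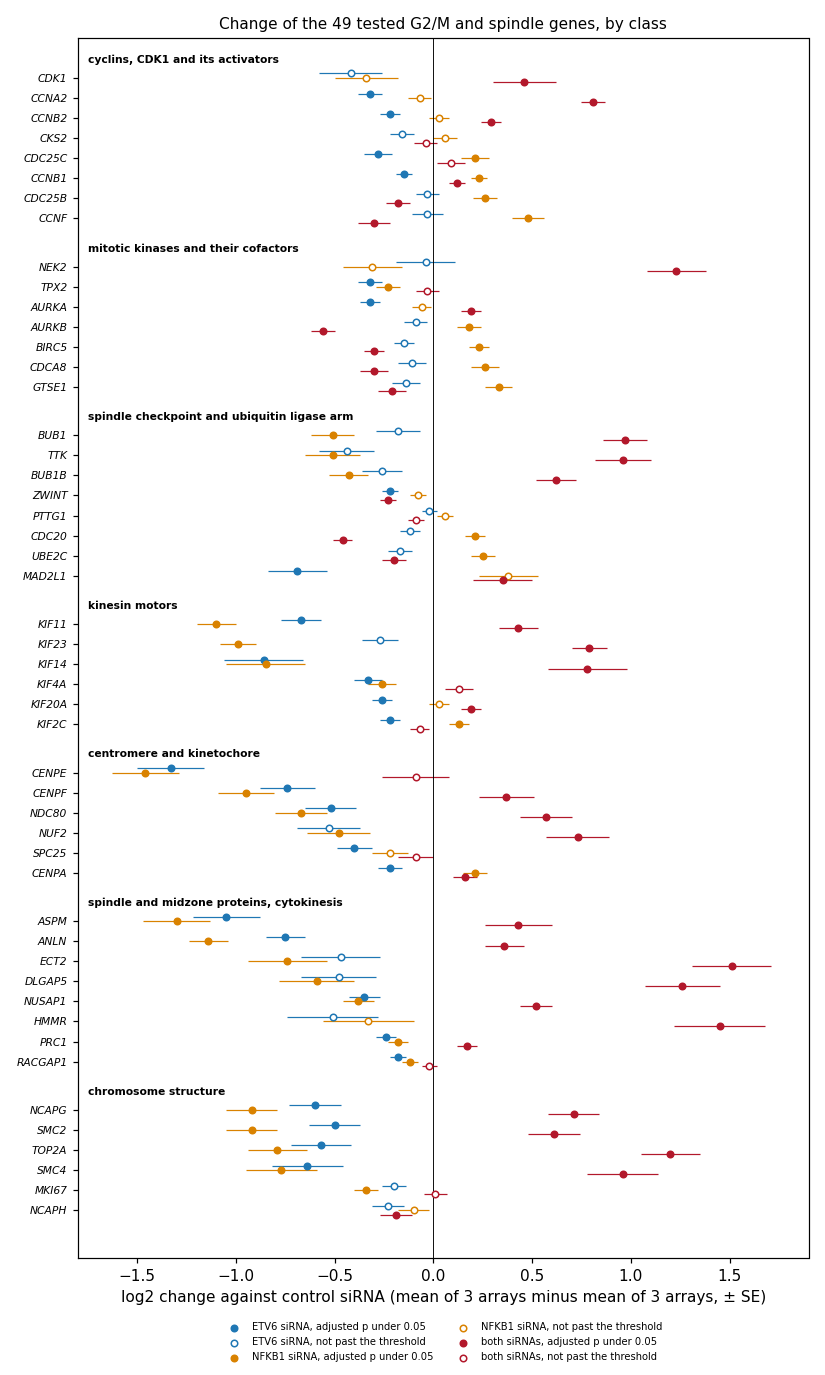
Log2 change against control siRNA (x axis, ± SE, 3 arrays against 3) of the 49 tested members, grouped by class and ordered within a class by their NFKB1 siRNA change; blue is ETV6 siRNA, orange NFKB1 siRNA, red both siRNAs, and filled points have an adjusted p under 0.05 (limma). In the lower 4 classes most orange points lie left of 0 and most red points right of it, down to -1.46 for CENPE with NFKB1 siRNA and up to 1.51 for ECT2 with both.

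The largest falls with NFKB1 siRNA after CENPE were in ASPM (-1.30 ± 0.17), ANLN (-1.14 ± 0.10), KIF11 (-1.10 ± 0.10), KIF23 (-0.99 ± 0.09), a motor of the central spindle, and CENPF (-0.95 ± 0.14), with limma adjusted p-values from 1.1e-05 to 0.000303. ANLN read 11.50, 11.41 and 11.71 in the controls, 10.72, 11.02 and 10.62 with ETV6 siRNA, 10.39, 10.40 and 10.40 with NFKB1 siRNA, and 11.86, 11.88 and 11.96 with both. Its 4 groups did not overlap. NCAPG and SMC2 each fell by 0.92. BUB1, BUB1B and TTK, kinases of the checkpoint signal, had -0.51, -0.43 and -0.51, and the TTK call was lost without NFKB1 replicate 1 (-0.47, adjusted p = 0.0526).

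TOP2A read 11.01, 11.00 and 11.62 in the controls, 10.56, 10.91 and 10.44 with ETV6 siRNA, 10.44, 10.37 and 10.44 with NFKB1 siRNA, and 12.38, 12.43 and 12.41 with both. Control replicate 3 was the highest control array, and the groups did not overlap, apart from the ETV6 and NFKB1 arrays with each other. The change was -0.79 ± 0.15 with NFKB1 siRNA (limma adjusted p = 0.00187) and 1.20 ± 0.15, or 2.29-fold, with both (adjusted p = 2.57e-05). MKI67, the proliferation antigen that coats mitotic chromosomes, read 9.39, 9.21 and 9.37 in the controls, 9.04, 9.21 and 9.13 with ETV6 siRNA, 8.99, 8.94 and 9.03 with NFKB1 siRNA, and 9.31, 9.35 and 9.33 with both. The NFKB1 arrays lay below the controls, the arrays with both siRNAs lay among them, and ETV6 replicate 2 equalled the lowest control after rounding. MKI67 fell by 0.34 ± 0.06 with NFKB1 siRNA (limma adjusted p = 0.00112) and had 0.01 with both (adjusted p = 0.938). The ETV6 change was -0.20 (limma adjusted p = 0.057). It passed the threshold without control replicate 2 (-0.25, adjusted p = 0.023) or ETV6 replicate 2 (-0.24, adjusted p = 0.0439). The same held with the mean of its probe sets (-0.29, limma adjusted p = 0.00572) and with the filter at the 50th percentile (-0.20, adjusted p = 0.0405). Its 4 probe sets ran from -0.40 to -0.20 with ETV6 siRNA, and the brightest had the smallest change.

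Of the members that rose with NFKB1 siRNA, CCNF had the largest change. CCNF, the cyclin F subunit of a ubiquitin ligase, read 8.32, 8.24 and 8.02 in the controls, 8.21, 8.04 and 8.24 with ETV6 siRNA, 8.68, 8.73 and 8.61 with NFKB1 siRNA, and 7.95, 7.91 and 7.81 with both. The NFKB1 arrays lay above every other array, the arrays with both siRNAs lay below every other array, and the ETV6 arrays overlapped the controls. It rose by 0.48 ± 0.08 with NFKB1 siRNA (limma adjusted p = 0.000853) and fell by 0.30 with both (adjusted p = 0.00445). CDC20, the activator of the APC/C, read 11.37, 11.33 and 11.27 in the controls, 11.26, 11.13 and 11.23 with ETV6 siRNA, 11.58, 11.54 and 11.48 with NFKB1 siRNA, and 10.82, 10.86 and 10.90 with both. For CDC20 no groups overlapped, and the changes were 0.21 ± 0.05 with NFKB1 siRNA (adjusted p = 0.00696) and -0.46 ± 0.05 with both (adjusted p = 1.02e-05).

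UBE2C, the ubiquitin-conjugating enzyme of the APC/C, and GTSE1, a microtubule-binding protein of G2, rose with NFKB1 siRNA by 0.25 and 0.33. AURKB, BIRC5 (survivin) and CDCA8 (borealin), subunits of the chromosomal passenger complex, rose by 0.18, 0.23 and 0.26, and the phosphatases CDC25B and CDC25C by 0.26 and 0.21. CENPA rose by 0.21 and KIF2C, a microtubule-depolymerizing kinesin, by 0.13. INCENP, the scaffold of the passenger complex, was under the filter, with levels of 6.15 to 6.42 in the controls and 6.38 to 6.55 with NFKB1 siRNA.

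**Figure D2:**
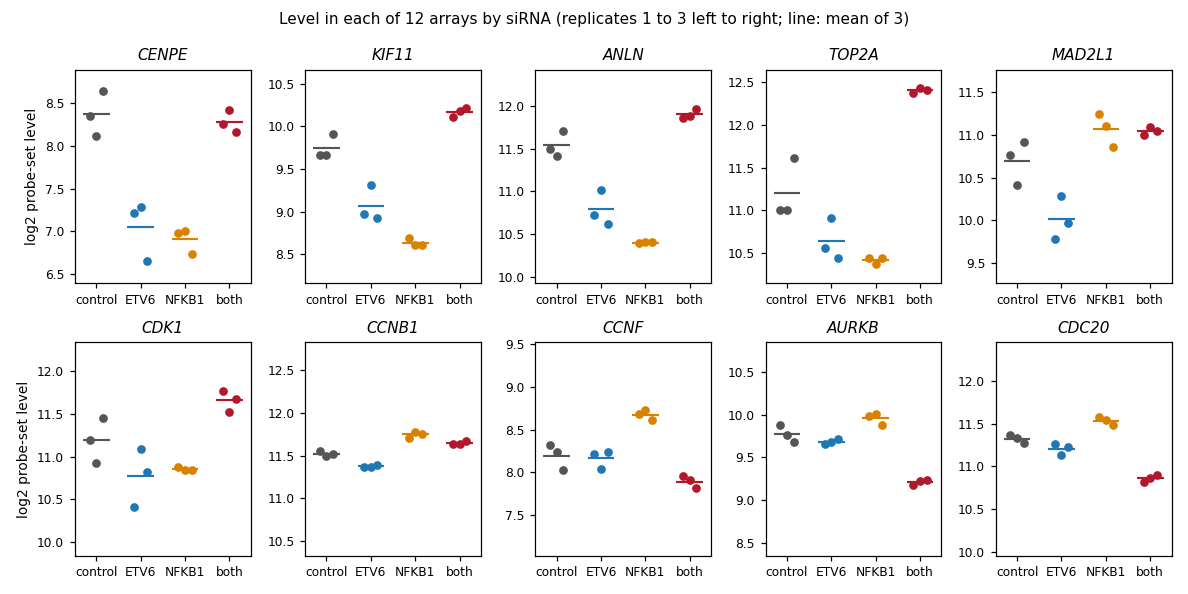
Log2 probe-set level (y axis, every panel spanning the same number of log2 units) of 10 members in each of the 12 arrays, grouped on the x axis by siRNA, with a line at the mean of 3 arrays. CENPE, KIF11, ANLN and TOP2A are lower in both single knock-downs than in the controls, and CCNF, AURKB and CDC20 are lowest with both siRNAs, as the values in the text give them.

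With both siRNAs more members rose than fell, while more genes overall were called lower than higher. Of 49 members, 29 (59.2%) were called higher and 10 (20.4%) lower by limma, where 31.9% of all tested genes were called higher and 49.0% lower, and the median change was 0.19 against -0.13 over all tested genes. After array medians were made equal, the median change of all tested genes became -0.24, that of the members 0.08, and the counts 21 higher and 14 lower, so that 60.0% of the called members were higher in place of 74.4%. Without control replicate 3 the counts were 28 and 10.

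The largest rises were in ECT2, the exchange factor that activates RhoA at the division site (1.51 ± 0.20, or 2.84-fold), HMMR, a spindle-associated hyaluronan receptor (1.45 ± 0.23), DLGAP5, a spindle assembly protein (1.26 ± 0.19), NEK2, a centrosome-separating kinase (1.23 ± 0.15), and TOP2A. ECT2 read 8.95, 8.79 and 9.54 in the controls, 8.48, 9.01 and 8.38 with ETV6 siRNA, 8.50, 8.51 and 8.05 with NFKB1 siRNA, and 10.57, 10.57 and 10.66 with both. The arrays with both siRNAs lay above all others, among which control replicate 3 was the highest. BUB1 and TTK rose by 0.97 and 0.96, SMC4 by 0.96, CCNA2 by 0.81, KIF23 by 0.79 and NUF2, of the NDC80 complex, by 0.73 (limma adjusted p from 1.38e-06 to 0.00117).

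The 10 members called lower with both siRNAs were CCNF, CDC25B, AURKB, GTSE1, BIRC5, CDCA8, CDC20, UBE2C, ZWINT and NCAPH. AURKB, the kinase of the passenger complex, had the largest fall. It read 9.88, 9.76 and 9.68 in the controls, 9.66, 9.68 and 9.71 with ETV6 siRNA, 9.98, 10.01 and 9.88 with NFKB1 siRNA, and 9.18, 9.22 and 9.23 with both. The arrays with both siRNAs lay below every other array, and the ETV6 and NFKB1 arrays each overlapped the controls. The change of -0.56 ± 0.06 (limma adjusted p = 6.17e-06) holds for the brighter probe set, with a mean level of 9.66. The other, at a mean level of 5.89 under the filter, had 0.20, and the mean of the 2 had -0.18 (adjusted p = 0.133).

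PLK1, the Polo kinase of mitotic entry and a member under the filter, was not tested. It read 7.0, 6.91 and 6.73 in the controls, 6.86, 6.81 and 6.68 with ETV6 siRNA, 7.32, 7.07 and 6.93 with NFKB1 siRNA, and 6.14, 6.27 and 6.32 with both. The arrays with both siRNAs lay below every other array, as for AURKB and CDC20. SGO2, the centromere protector shugoshin, and the kinesins KIF15, KIF18A and KIF20B had their highest values with both siRNAs, at 8.61 to 8.79, 8.09 to 8.15, 7.33 to 7.61 and 8.36 to 8.55, and INCENP its lowest, at 5.85 to 5.91. For KIF20B control replicate 3 read 8.40, so that these groups overlap, and for the other 4 they do not.

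**Figure D3:**
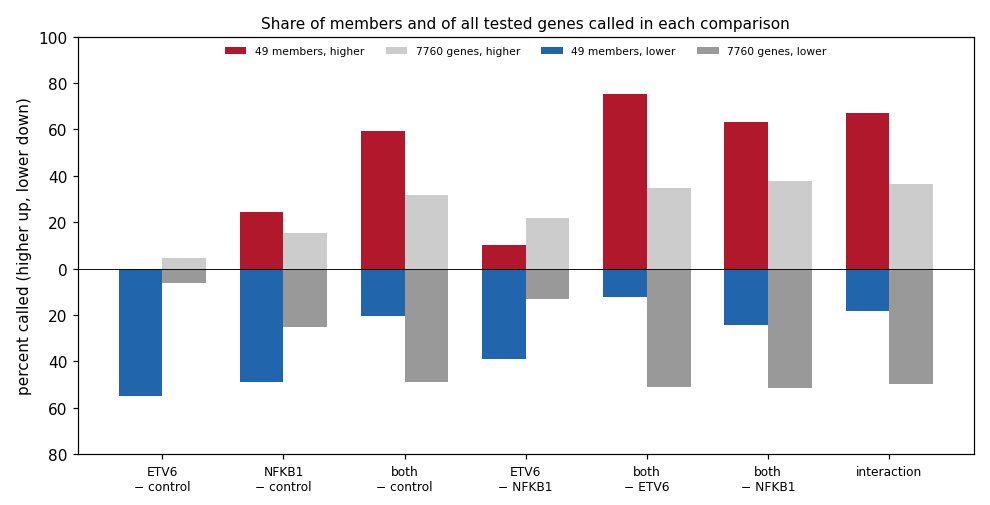
Percent of the 49 tested members (red and blue) and of the 7760 tested genes (grey) called higher (upward) or lower (downward) in each of 7 comparisons on the x axis, by limma at an adjusted p under 0.05. The members exceed all genes on the lower side for both single knock-downs (55.1% against 6.28% and 49.0% against 25.1%) and on the higher side for both siRNAs (59.2% against 31.9%).

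Probe sets of the same gene bear on several of these values. Of the tested members, 22 had more than 1 single-gene probe set. Their changes differed by over 0.5 on the log2 scale for 0 members with ETV6 siRNA, 2 with NFKB1 siRNA and 4 with both. For NFKB1 siRNA these were MAD2L1 and ECT2 (-0.74 and -0.15), and for both siRNAs MAD2L1, AURKB, ASPM (0.43 and -0.19) and NEK2 (1.23 and 1.74).

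Between the single knock-downs 49.0% of the members were called in 1 direction or the other, with a median difference of -0.08 on the log2 scale. ETV6 siRNA lay below NFKB1 siRNA in 19 members (38.8%) and above it in 5 (10.2%) by limma, where 13.1% of all tested genes were called lower and 21.8% higher. By class the lower ones were 7 of 8 cyclins, CDK1 and its activators, 5 of 7 kinases and cofactors, 4 of 8 checkpoint and ubiquitin ligase genes, 2 of 6 kinesins, 1 of 6 kinetochore genes, 0 of 8 spindle and cytokinesis proteins and 0 of 6 chromosome structure genes. After MAD2L1 the largest were CCNF (-0.51 ± 0.08), CDC25C (-0.49 ± 0.07) and GTSE1 (-0.47 ± 0.07). The 5 higher ones were KIF23 (0.71 ± 0.09), KIF11 (0.43), SMC2 (0.41), ANLN (0.39) and BUB1, a count that fell to 3 without ETV6 replicate 2, NFKB1 replicate 1 or NFKB1 replicate 3.

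Most members were higher with both siRNAs than with ETV6 siRNA alone, and most were higher than with NFKB1 siRNA alone. With each siRNA at the same dose, the cells given both pools received more siRNA in total, as the design is described. No control group with that larger total is listed. The part of total siRNA dose in these differences, and in those between both siRNAs and control, was not tested. Against ETV6 siRNA alone, both siRNAs gave 37 members higher (75.5%) and 6 lower (12.2%) by limma, beside 34.9% and 51.2% of all tested genes. The 6 lower members were CCNF, CDC25B, AURKB, BIRC5, CDCA8 and CDC20, a count that was 3 without replicate 1 of both siRNAs. Against NFKB1 siRNA alone they gave 31 higher (63.3%) and 12 lower (24.5%), beside 37.7% and 51.4% of all tested genes. That split was 25 higher and 16 lower with array medians made equal (61.0% of calls higher in place of 72.1%). The largest rises in both were ECT2 (1.98 ± 0.20 over ETV6 siRNA and 2.24 ± 0.20 over NFKB1 siRNA), TOP2A (1.77 and 1.99, SE 0.15), HMMR (1.96 and 1.78) and DLGAP5 (1.74 and 1.85), and the largest falls AURKB (-0.47 and -0.74), CDC20 (-0.34 and -0.68), CCNF (-0.27 and -0.78) and CDCA8 (-0.19 and -0.57).

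The interaction asks whether both siRNAs together differ from the sum of the 2 single changes. It rests on the same groups, whose total siRNA dose was not matched, and the part of that dose was not tested. Of 49 members, 33 (67.3%) were called above the sum and 9 (18.4%) below it by limma, beside 36.5% and 49.8% of all tested genes, with a median of 0.66 against -0.18. All 8 spindle and cytokinesis proteins lay above, as did 5 of 6 kinesins, kinetochore genes and chromosome structure genes each. The 9 below were CCNF, CDC25B, AURKB, GTSE1, BIRC5, CDCA8, CDC20, UBE2C and PTTG1 (securin). ASPM (2.78 ± 0.24), ECT2 (2.72 ± 0.29), CENPE (2.70 ± 0.24) and TOP2A (2.56 ± 0.22) lay farthest above and CCNF (-0.76 ± 0.11) farthest below. CCNB1 had 0.05 ± 0.06 (limma adjusted p = 0.464) by its brighter probe set, but its other probe set had 0.59, and the mean of both had 0.32 (adjusted p = 0.000893). With the brighter probe sets, neither CKS2, CDC25C, ZWINT, KIF2C, CENPA nor NCAPH passed the threshold.

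The 4 groups form 3 pairs of comparisons that share no array, and the members' changes were negatively correlated in 2 of them and positively in the other. The change with ETV6 siRNA alone and the change when ETV6 siRNA was added to NFKB1 siRNA had a Pearson r of -0.66 and a Spearman rho of -0.74 over 49 members (r -0.31 over 7760 genes). These are correlations across genes, which are not independent replicates. Of the 27 members that fell with ETV6 siRNA alone, 20 were higher with both siRNAs than with NFKB1 siRNA, 3 lower and 4 not called, and over all genes 356 of 487 (73.1%) went from lower to higher. For NFKB1 siRNA the same pair had r -0.75 and rho -0.79 (r -0.61 over all genes). All 24 members that fell with NFKB1 siRNA alone were higher with both siRNAs than with ETV6 siRNA, where 74.2% of all such genes were, and of the 12 that rose 6 were lower, 4 higher and 2 not called, where 77.2% of all such genes were lower. In the remaining pair, ETV6 siRNA minus NFKB1 siRNA and both siRNAs minus control, r was 0.54 and rho 0.65 over the members (r 0.49 over all genes).

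Control replicate 3 differed from the other control arrays along the same line. Its level minus the mean of controls 1 and 2 had a median of 0.11 over the tested members and was above 0 in 34 of 49, from -0.26 in CCNF to 1.07 in HMMR, where the median of all tested genes was -0.03. The 24 members that fell with NFKB1 siRNA had a median of 0.41 for this difference, the 13 not called 0.05, and the 12 that rose -0.12. Over the 49 members it had an r of 0.89 and a rho of 0.92 with the change from NFKB1 siRNA to both siRNAs, and 0.94 and 0.95 with that from ETV6 siRNA, which share no array with it (r 0.85 and 0.86 over all genes). The members thus varied within the control group along the differences between the groups, and the part of this in the results was not tested beyond the counts without this array.

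**Figure D4:**
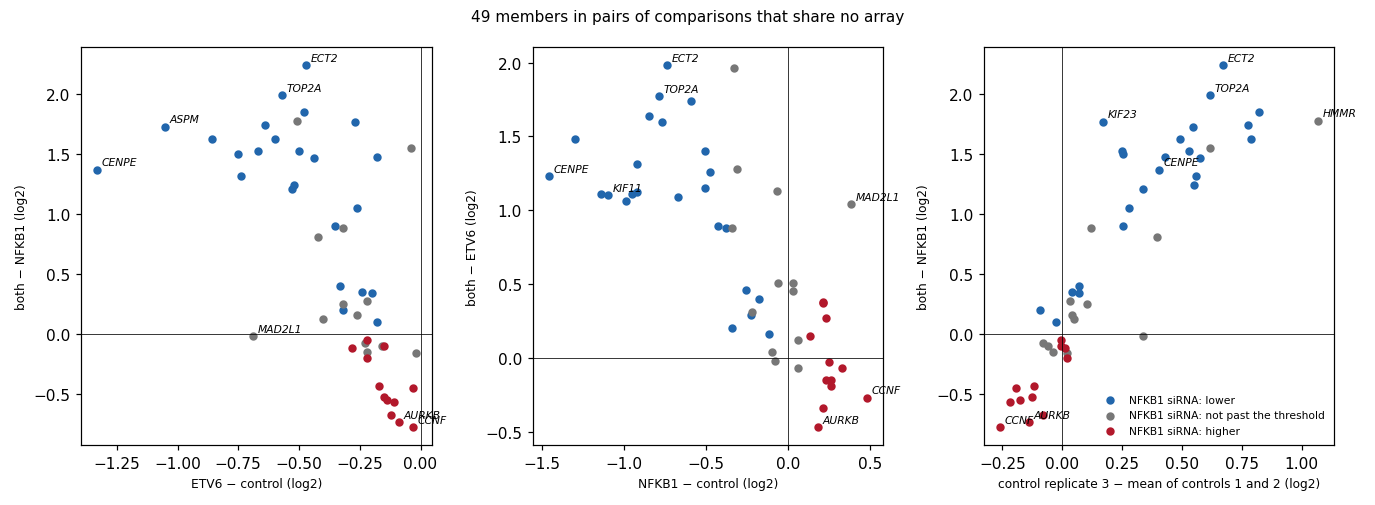
Each point is 1 of the 49 tested members, coloured by its call with NFKB1 siRNA (blue lower, grey not past the threshold, red higher), and axes are log2 differences between groups or arrays that share no array within a panel. The first 2 panels slope downward (r -0.66 and -0.75) and the panel of control replicate 3 against the change from NFKB1 siRNA to both siRNAs slopes upward (r 0.89).

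The promoter letters are given here by the direction of the NFKB1 siRNA call. CHR letters were present in 20 of 21 genes with a window that fell with NFKB1 siRNA and in 9 of 10 that rose, as in the printed KIF11 and CENPE and in CCNB1 and CDC20. TTTGAA alone was present in 19 of the 21, in 6 of the 10 and in 7 of the 12 not called. CCAAT letters were present in 13 of the 21 and in 9 of the 10, and in 12 of the 12 not called. The ETS core was present in 9 of the 21, 4 of the 10 and 0 of the 12, and the kB consensus in 4, 1 and 0. These counts are given with no test.

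The other genes of the same processes, in 7 lists with 113 tested genes, are set beside the members here. With ETV6 siRNA 23 (20.4%) were called lower and 3 (2.65%) higher by limma, beside 6.28% and 4.38% of all tested genes. With NFKB1 siRNA 39 (34.5%) were lower and 11 (9.73%) higher, beside 25.1% and 15.5%. With both siRNAs 49 (43.4%) were lower and 44 (38.9%) higher, near the 49.0% and 31.9% of all tested genes. The medians were -0.13, -0.04 and -0.01. Of the APC/C subunits and regulators 2 of 17 (11.8%) fell with ETV6 siRNA, FBXO5 (EMI1, an APC/C inhibitor) by 0.47 and UBE2S by 0.28. With NFKB1 siRNA 3 (17.6%) fell, FBXO5 among them by 0.59, and 1 (5.88%) rose. With both siRNAs 9 of the 17 (52.9%) fell and 5 (29.4%) rose, near the shares of all tested genes. Among them were ANAPC15 (-0.70 ± 0.10) and CDC27 (1.22 ± 0.11).

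Among cohesin and its regulators 1 of 14 (7.14%) was called with ETV6 siRNA, and 9 (64.3%) fell and 1 (7.14%) rose with NFKB1 siRNA. SMC3, a ring subunit, had -1.21 ± 0.21 (limma adjusted p = 0.000957) and NIPBL, the loader, -1.13 ± 0.21 (adjusted p = 0.00151), while ESPL1 (separase) had 0.28. With both siRNAs 8 (57.1%) rose, led by ESCO1 (1.41), STAG2 (1.25) and RAD21 (1.10). A further 4 (28.6%) fell, CDCA5 (sororin) and ESPL1 by 0.48 each, MAU2 by 0.44 and SMC1A by 0.30. Of all tested genes 25.1% were lower and 15.5% higher with NFKB1 siRNA, and 49.0% lower and 31.9% higher with both.

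Of 24 other kinetochore and checkpoint genes 10 (41.7%) fell with ETV6 siRNA, among them KNL1, the scaffold for BUB1 (-0.73 ± 0.12). With NFKB1 siRNA 10 (41.7%) fell and 1 (4.17%) rose, and KNL1 had -0.91. With both siRNAs 10 (41.7%) rose, led by SPDL1 (spindly, 1.18), and 7 (29.2%) fell, led by PMF1 (-0.90). Of all tested genes 6.28% were lower with ETV6 siRNA, 25.1% lower with NFKB1 siRNA, and 49.0% lower and 31.9% higher with both. Of 18 centrosome and spindle pole genes 2 (11.1%) fell with ETV6 siRNA and 8 (44.4%) with NFKB1 siRNA. CKAP2, a spindle-associated protein, had -1.0 ± 0.13 and -1.03 ± 0.13 (limma adjusted p = 0.00116 and 0.000158). With both siRNAs 6 (33.3%) rose, led by HAUS6 (1.28), and 7 (38.9%) fell, led by HAUS7 (-0.76). Of the 3 other condensin genes, NCAPG2 fell by 0.45 with NFKB1 siRNA (limma adjusted p = 0.00276) and NCAPD2 rose by 0.28 (adjusted p = 0.0373). That is 33.3% each way, beside 25.1% lower and 15.5% higher of all tested genes. NCAPD3 fell by 0.23 with ETV6 siRNA (limma adjusted p = 0.0286), and NCAPG2 rose by 0.24 with both (adjusted p = 0.0287). The NCAPD2 call was lost in 6 of 22 alternatives, and the last 2 calls in 5 each.

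Among 18 other G2/M regulators 6 (33.3%) fell and 1 (5.56%) rose with ETV6 siRNA, beside 6.28% and 4.38% of all tested genes. The 1 that rose was WEE1, the kinase that holds CDK1 inactive (0.36 ± 0.05, limma adjusted p = 0.00185). With both siRNAs all 18 were called, 12 lower (66.7%) and 6 higher (33.3%), beside 49.0% and 31.9% of all tested genes. PKMYT1, the other inhibitory kinase of CDK1, fell by 0.70 and the phosphatase CDC25A by 0.51. DEPDC1 had the largest rise, 2.07 ± 0.21 (adjusted p = 5.64e-06). It read 7.78, 7.61 and 8.58 in the controls and 10.10, 9.99 and 10.09 with both siRNAs, which do not overlap.

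The transcription regulators themselves went both ways. Of 19 tested genes of the MuvB, DREAM, E2F and NF-Y list 1 (5.26%) fell and 2 (10.5%) rose with ETV6 siRNA. Of all tested genes 6.28% fell and 4.38% rose. With NFKB1 siRNA 6 (31.6%) fell and 3 (15.8%) rose, beside 25.1% and 15.5% of all tested genes. With both siRNAs 10 (52.6%) fell and 8 (42.1%) rose, beside 49.0% and 31.9%. FOXM1 read 10.64, 10.59 and 10.48 in the controls and 9.94, 10.00 and 10.00 with both siRNAs, a fall of 0.59 ± 0.05 (limma adjusted p = 2.51e-06), and MYBL2 fell by 0.73 ± 0.07 (adjusted p = 5.43e-06). RB1 and RBL2, pocket proteins that repress cell cycle genes, rose by 1.03 and 0.95 with both siRNAs. E2F8, a repressor E2F, fell by 0.38 with ETV6 siRNA and by 0.90 with NFKB1 siRNA, and NFYA, the DNA-binding subunit of NF-Y, had -0.65 with NFKB1 siRNA and 0.49 with both.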

How the data were processed

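The authors deposited log2 probe-set levels of 12 Affymetrix arrays; background correction, summarization and normalization are not given in the sources used here, and precision is limited by the number of arrays. Of 19520 probe sets, 17319 named 1 gene in the platform table and 857 several; 17313 matched RefSeq by Entrez identifier, used for names only. The brightest single-gene probe set stood for a gene, and genes whose mean lay under log2 7.54 (the 25th percentile) were not tested, ETV6 and NFKB1 excepted. Groups came from the sample titles. One group-means model of all 12 arrays was fitted with limma 3.58.1 in R 4.3.3 (8 residual and 3.41 prior degrees of freedom, two-sided, Benjamini-Hochberg over 7760 genes for each of 7 comparisons), and the fit was tested on simulated data. Of 14 markers of immune, endothelial, epithelial and neuronal cells, KRT18 and SYT1 were measured, with SYT1 under the filter, so other cell types were hardly covered.

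The members and all gene lists were chosen with earlier results of these data known. A set of 9 members was always named with every array; otherwise up to 2 called members per class and comparison with control, up to 4 called genes per direction for other comparisons and lists, and members that were unmeasured, under the filter or with disagreeing probe sets. Further members named within a class, and ANLN, ECT2, CCNF, AURKB, CDC20, DEPDC1 and FOXM1 with their array values, were chosen after their values were seen. Alternatives were 2 array scalings, 2 filters, 2 probe-set rules, array weights, a variance model, a replicate block, a fit of only the groups compared, and each array left out.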

Additional observations from a re-analysis of the deposited data

Results flagged for a closer look

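Both siRNAs together differed from the sum of the single changes in 42 of the 49 tested members, by the interaction term in limma (adjusted p under 0.05). The total siRNA dose was not matched between these groups, and its part was not tested. Of the 42, 33 lay above and 9 below the sum, or 67.3% and 18.4% of the tested members. Of all tested genes 36.5% and 49.8% did. The share called, counting both directions together, is thus near that of all genes. The interaction, in log2 units with its SE, was 1.23 ± 0.22 for CDK1, 0.57 ± 0.07 for AURKA, 0.66 ± 0.21 for MAD2L1, 2.70 ± 0.24 for CENPE, 2.21 ± 0.14 for KIF11, 2.56 ± 0.22 for TOP2A and 0.54 ± 0.08 for MKI67. It was 2.78 ± 0.24 for ASPM and 2.72 ± 0.29 for ECT2. Below 0 it was -0.76 ± 0.11 for CCNF, -0.65 ± 0.08 for AURKB, -0.56 ± 0.07 for CDC20 and -0.46 ± 0.09 for CDCA8. The limma adjusted p-values of these genes ranged from 7.41e-07 to 0.00982, each with 3 arrays in each of 4 groups. The MAD2L1 value depends on the processing: it ran from 0.32 with array weights to 1.54 with the mean of probe sets. The second probe set alone, at a mean level of 5.88 under the filter, had 2.41.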

How the results depend on the processing

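Of the 14 counts of called members, 11 stayed within 1.5 times their value in all alternatives run, 22 for each count and 21 for the interaction, which needs all groups in the fit. Members called lower with ETV6 siRNA numbered 6 with only the groups compared and 14 to 30 with 1 array left out. Members higher with ETV6 than with NFKB1 siRNA numbered 3 with quantile normalization, 9 with array weights and 3 to 7 with 1 array left out. Members lower with both siRNAs than with ETV6 siRNA numbered 3 to 6 with 1 array left out. These are counts of members only, and the shares of all tested genes called in the alternatives were not counted. Of 172 results for named genes, 118 kept call and direction in every alternative, 47 lost the call in at least 1, 6 gained one, and 1 reversed: TFDP2 with NFKB1 siRNA had -0.0049 with the mean of probe sets (adjusted p = 0.962). The causes were not tested.

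The replicate numbers do not pair the arrays: deviations of same-numbered arrays correlated at -0.516 to 0.482, and in 0 of 6 pairs of groups were all over 0.1. With the replicate number as a block, 22 members were lower with ETV6 siRNA, 23 lower and 12 higher with NFKB1 siRNA, and 10 lower and 27 higher with both. With 3 arrays a group and levels known only relative to other arrays, small changes and shifts shared by a whole array are poorly determined.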
